A study of Mus musculus with 9 samples.

Results

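The 10 genes described here are the PDGF ligands Pdgfa, Pdgfb and Pdgfc, their receptors Pdgfra and Pdgfrb, the growth factor receptors Egfr, Fgfr1, Fgfr2 and Met, and the RAS gene Nras. They were chosen by name as genes of the pathways that drive glioma, and all 10 were found among the 49315 gene IDs of the count table. RNA was sequenced from cells sorted out of 2-day co-cultures of SB28, a GFP+ mouse glioblastoma line on the C57BL6 background, with primary neonatal astrocytes of C57BL6 mito::mKate2 mice, in which a transgene under the CAG promoter labels mitochondria with a red fluorophore, mKate2. The 9 libraries are 3 of astrocytes, 3 of SB28 cells that had not taken up astrocyte mitochondria (mKate2-) and 3 of SB28 cells that had (mKate2+), sorted from 3 distinct co-cultures. All 3 groups shared 1 medium, which per the labels held 2% serum, 5% N2 supplement and 20 ng/ml of EGF and FGF, whereas the methods of the study give other shares of serum and N2 supplement for its co-culture medium. SB28 is a single line, and the astrocytes came from glial cultures of newborn pups. Total counts ranged from 24454561 to 39287841 per library. Levels are given as CPM, a gene's count scaled to the total of all genes in the library.

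Receptor tyrosine kinases bind a growth factor outside the cell and phosphorylate themselves inside it, adaptors then recruit exchange factors that load RAS with GTP, and RAS passes the signal to the RAF-MEK-ERK cascade and to PI3K. The ERK pathway switches on its own brakes, among them the Sprouty proteins and the dual-specificity phosphatases. In gliomas the receptors most often altered are those for EGF and PDGF, and SB28 was made by introducing an activated NRAS, a PDGF ligand and an RNA hairpin against p53 into mouse brain. Counts per gene do not separate reads of an introduced copy from reads of the mouse gene where their sequences match, so the sources of the Pdgfb, Pdgfa and Nras counts cannot be told apart.

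Among the 10 genes, all 6 SB28 libraries lay above all 3 astrocyte libraries in CPM for 4 genes (Pdgfb, Pdgfc, Met and Nras), below them for 4 (Pdgfa, Egfr, Fgfr1 and Fgfr2), and overlapped them for Pdgfra and Pdgfrb. Among all genes with a mean of at least 1 CPM, 28.7% lay above and 33.2% below in the same way. By edgeR's quasi-likelihood test, with calls at an adjusted P value below 0.05 and a log2 fold change beyond 1, 3 of the 10 genes were higher and 3 lower in mKate2- SB28 cells than in astrocytes, against 11.5% and 22.4% of all genes tested. In mKate2+ SB28 cells 3 were higher and 2 lower, against 12.2% and 22.8% of all genes tested. Both comparisons use the same astrocyte libraries. With the adjusted P value alone, 4 were higher and 4 lower in each, against 29.3% and 33.8% of all genes for mKate2- cells and 28.0% and 32.1% for mKate2+ cells. In bulk RNA from sorted cells, fewer cells of a type and less RNA per cell cannot be told apart.

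**Figure D1:**
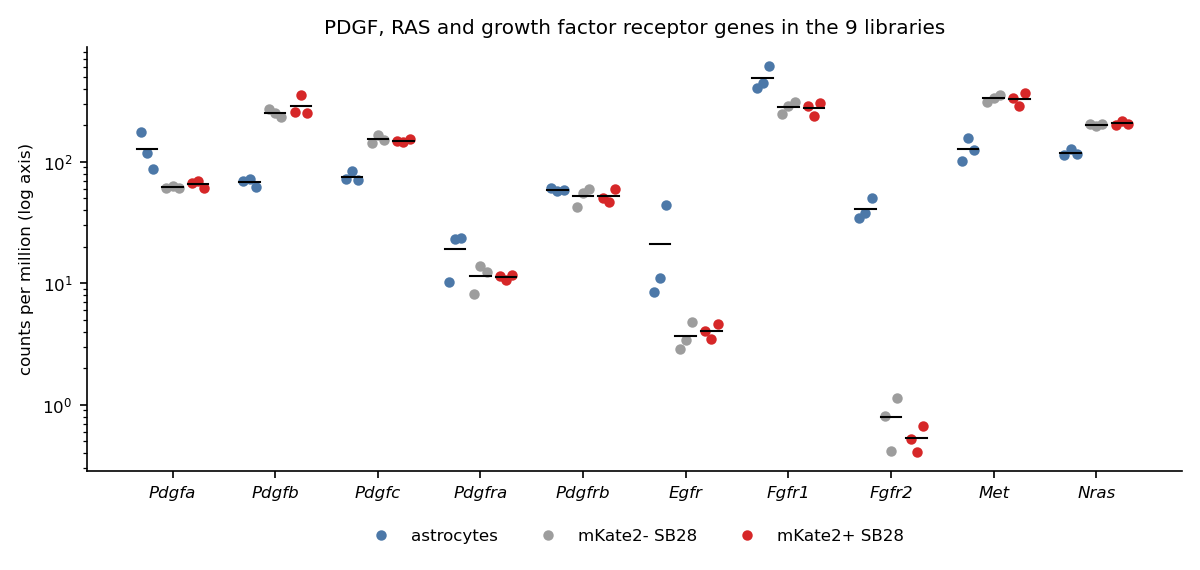
CPM values (log axis) of the 10 genes in each of the 9 libraries, with 3 points per group and a black line at the group mean. Pdgfb, Pdgfc, Met and Nras sit higher in all 6 SB28 libraries than in the 3 astrocyte libraries, and Fgfr2 falls from 34.5 to 50.8 CPM in astrocytes to 0.407 to 1.14 CPM in SB28.

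Before the single genes, the identity of the sorted cells was checked on marker genes. Slc1a3, an astrocyte glutamate transporter, stood at 173, 177 and 236 CPM in the astrocyte libraries and between 0.56 and 2.38 CPM in the SB28 libraries. The 14 astrocyte markers summed to 1331 ± 240 CPM (SD, n = 3) in astrocytes, 520 ± 24.5 in mKate2- and 525 ± 16.5 in mKate2+ cells. The most abundant of them over the 9 libraries together, the gap junction gene Gja1, had 198 ± 26.3 CPM in astrocytes and was at 136% of that level in SB28. In astrocytes Apoe, at 265 CPM, was above it, and Gjb6 was at 0 in every library. Genes listed as markers of other cells were present in the astrocyte libraries too. The 6 oligodendrocyte progenitor markers summed to 836, 420 and 483 CPM in them, while SB28 had 9.37 ± 3.67 and 5.97 ± 2.32 CPM. Most of that sum was Olig1 and Olig2, at means of 362 and 194 CPM, with Cspg4 at 22.9 CPM. The other 3, Sox10, Gpr17 and Lhfpl3, were under 1 CPM in every library, and Gpr17 had 0 reads in astrocytes. The 8 pericyte and fibroblast markers, led by Col1a2, summed to 1358 ± 198 CPM in astrocytes, 726 ± 73.5 in mKate2- and 648 ± 121 in mKate2+ cells. Most of the astrocyte sum was Col1a2 and Col1a1, at means of 990 and 267 CPM, with Acta2 at 92.5 and Anpep at 6.14 CPM. Dcn, Lum, Rgs5 and Kcnj8 were at 2.73 CPM or less in every library. The 8 microglial markers, led by P2ry12, summed to 2.24 ± 1.74 CPM, the 4 endothelial markers, led by Cdh5, to 3.38 ± 3.09 CPM, and the 5 neuronal markers, led by Stmn2, to 32.7 ± 17.8 CPM in astrocytes. In SB28 these 3 lists summed to 0.338 ± 0.125, 1.09 ± 0.305 and 2.00 ± 0.532 CPM in mKate2- cells and 0.272 ± 0.176, 1.23 ± 0.162 and 1.74 ± 0.513 CPM in mKate2+ cells. The endothelial sums overlapped between SB28 and astrocytes, where replicate 3 had 6.94 CPM. Of the neuronal markers, Stmn2 had 11.4, 43.4 and 38.5 CPM in the astrocyte libraries, and Rbfox3, a marker of mature neurons, was at 0 in every library. The part of other cells in the differences below was not tested.

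The PDGF ligands differed in direction. Pdgfb (ENSMUSG00000000489, chr15:79995874-80014977, minus strand, GRCm38), which codes for the B chain that binds both PDGF receptors, had 70.2, 72.5 and 61.9 CPM in astrocytes. It had 272, 251 and 234 CPM in mKate2- cells and 257, 355 and 254 CPM in mKate2+ cells. All SB28 libraries were far above all astrocyte libraries, and the highest value belonged to mKate2+ replicate 2. Pdgfb rose by a log2 fold change of 1.90 ± 0.12 (SE, n = 3 per group, edgeR adjusted P = 1.4e-05) in mKate2- cells and 2.16 ± 0.19 (adjusted P = 8.38e-05) in mKate2+ cells. Across the 6 SB28 libraries the mean was 3.96 times that of astrocytes.

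Pdgfc (ENSMUSG00000028019, chr3:81036416-81214040, plus strand), a ligand that is cut before it can bind the alpha receptor, stood at 72.3, 84.1 and 70.8 CPM in astrocytes. Its SB28 values were 144, 167 and 152 CPM in mKate2- and 148, 145 and 154 CPM in mKate2+ cells. The groups did not overlap, and the 6 SB28 libraries lay close together. The log2 fold changes were 1.04 ± 0.11 (edgeR adjusted P = 0.000154) and 1.05 ± 0.11 (adjusted P = 0.000216), so that Pdgfc passed the fold threshold narrowly in both. It dropped below that threshold, at 0.99 and 0.98, without astrocyte replicate 3.

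Pdgfa (ENSMUSG00000025856, chr5:138976014-138997370, minus strand), whose A chain binds the alpha receptor, moved the other way. Its levels were 176, 118 and 86.7 CPM in astrocytes, 61.4, 63.3 and 61.3 CPM in mKate2- and 67.4, 69.1 and 61.4 CPM in mKate2+ cells. Every SB28 library was below every astrocyte library, although the astrocyte libraries themselves were widely spread. Pdgfa fell by 1.02 ± 0.25 on the log2 scale in mKate2- cells (edgeR adjusted P = 0.00758), and with replicate number as a block the value was -0.96, short of the fold threshold. In mKate2+ cells the log2 fold change was -0.87 ± 0.25 (adjusted P = 0.0194), which did not reach the fold threshold. Without astrocyte replicate 1 the fold change in mKate2- cells was -0.70, short of the threshold, and without astrocyte replicate 3 that in mKate2+ cells was -1.11, past it. In GENCODE M21, 26.1% of the exonic length of Pdgfa is shared with the antisense gene 6330403L08Rik, which had 20.7 ± 2.41 CPM in astrocytes and a mean of 7.82 CPM in SB28. Whether the counting used strand is not given in the sources used here, so reads from the pair may not be separable.

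The receptors for these ligands differed less. Pdgfrb (ENSMUSG00000024620), the beta receptor, had 60.9, 57.7 and 58.2 CPM in astrocytes, 42.2, 55.6 and 59.4 CPM in mKate2- and 50.5, 46.5 and 59.9 CPM in mKate2+ cells. The groups overlapped, with log2 fold changes of -0.16 ± 0.14 (edgeR adjusted P = 0.373) and -0.10 ± 0.13 (adjusted P = 0.508). Pdgfra (ENSMUSG00000029231, chr5:75152292-75198215, plus strand), the alpha receptor and a gene of oligodendrocyte progenitors, had 10.3, 23.3 and 23.7 CPM in astrocytes. It had 8.20, 13.9 and 12.4 CPM in mKate2- and 11.5, 10.6 and 11.7 CPM in mKate2+ cells. Astrocyte replicate 1, the astrocyte library with the most Olig1 and Olig2, had the lowest Pdgfra of its group and overlapped SB28. The log2 fold changes were -0.71 ± 0.33 (edgeR adjusted P = 0.097) and -0.68 ± 0.30 (adjusted P = 0.0828). Without that library the value in mKate2- cells was -1.01 (adjusted P = 0.00747), past both thresholds.

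Pdgfra made up 14.9% ± 5.62 (SD, n = 3) of the 2 PDGF receptor transcripts in astrocytes and 10.6% ± 0.95 (n = 6) in SB28, counted as CPM per kb of exonic length. The difference of -4.29 percentage points was within the spread of the astrocyte libraries (exact two-sided permutation test with the smaller tail doubled, p = 0.167). Astrocyte replicate 1, at 8.43%, makes the overlap with SB28. Without it the difference was -7.54 points (exact two-sided permutation test, p = 0.0714). With the smaller tail doubled, that is the smallest p that 6 against 2 libraries can give. The cells came from 3 co-cultures, so the 6 SB28 libraries are not 6 independent samples and these p-values are too small. With each sort alone the difference was -4.28 points for mKate2- and -4.31 points for mKate2+ cells (exact two-sided permutation test, p = 0.4 for each, where 3 against 3 cannot give a p below 0.1). The beta receptor was thus the more abundant PDGF receptor transcript in all 9 libraries, at 81.8% to 91.6% of the pair. The family's other 2 listed genes were both lower in SB28, beside 22.4% and 22.8% of all genes tested in the 2 comparisons. Pdgfd, a further ligand of the beta receptor, averaged 32.0 CPM in astrocytes and 12.4 CPM in SB28, and fell in both sorts, with log2 fold changes of -1.31 and -1.33 (edgeR adjusted P = 0.00106 and 0.00164). Pdgfrl, a gene with sequence similarity to the PDGF receptors, averaged 22.2 CPM in astrocytes and 0.127 CPM in SB28.

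**Figure D2:**
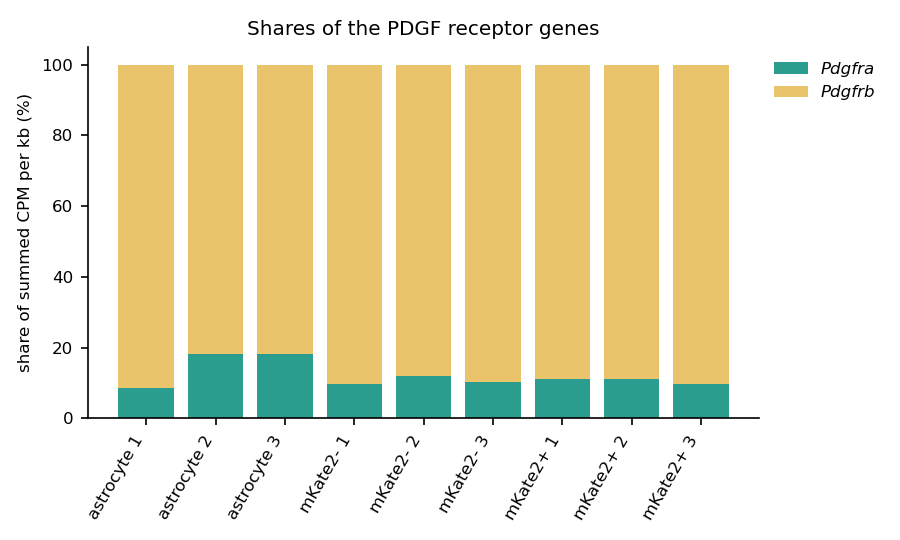
Shares in percent of the summed CPM per kb of Pdgfra and Pdgfrb, stacked for each of the 9 libraries. Pdgfrb holds 81.8% to 91.6% across the libraries, and the Pdgfra share overlaps between astrocytes and SB28.

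**Figure D3:**
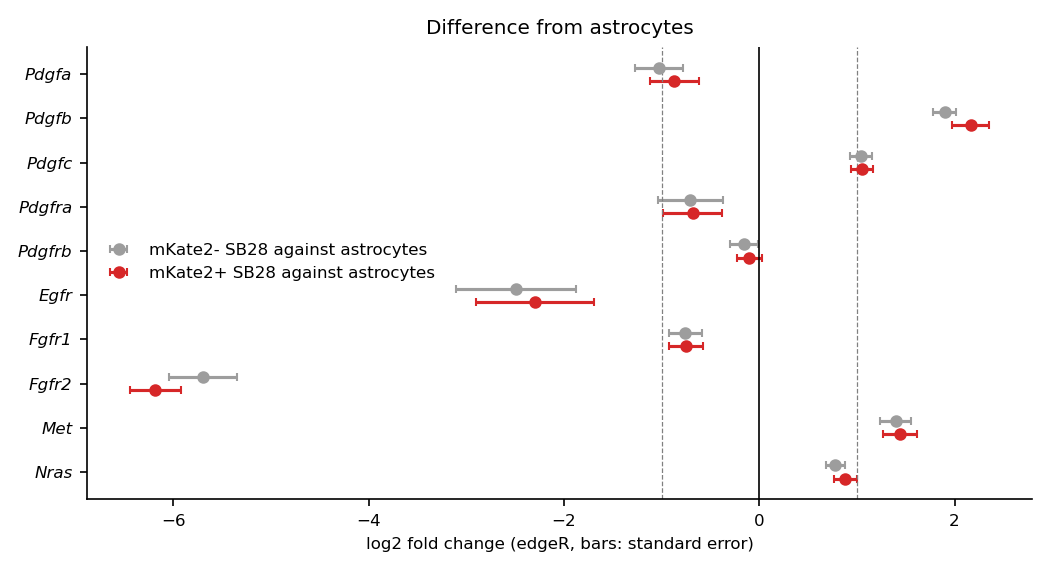
Log2 fold changes of the 10 genes in mKate2- (grey) and mKate2+ (red) SB28 cells against astrocytes, with standard errors as bars and dashed lines at -1 and 1. The 2 sorts have close values for each gene, from -6.18 for Fgfr2 to 2.16 for Pdgfb, and share the 3 astrocyte libraries.

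Of the 6 receptor genes among the 10, Egfr and Fgfr2 had the lowest levels in SB28. Egfr (ENSMUSG00000020122, chr11:16752203-16918158, plus strand), the receptor for EGF and its relatives, had 8.42, 11.0 and 43.7 CPM in astrocytes, 2.87, 3.43 and 4.76 CPM in mKate2- and 4.08, 3.46 and 4.65 CPM in mKate2+ cells. All SB28 libraries were below all astrocyte libraries, and astrocyte replicate 3 stood 4.51 times above the mean of the other astrocyte libraries. Egfr fell by 2.49 ± 0.62 on the log2 scale in mKate2- cells (edgeR adjusted P = 0.00875) and by 2.29 ± 0.60 in mKate2+ cells (adjusted P = 0.0127). Without astrocyte replicate 3 the log2 fold changes were -1.39 and -1.21, still past both thresholds. The same library stood apart for other receptor genes. It had 63.1 CPM of Fgfr3 against 8.83 and 9.72 CPM in the other astrocyte libraries. For Flt1, a VEGF receptor, it had 192 CPM against 5.64 and 12.4 CPM. The 14 astrocyte markers summed to 1609 CPM in it, against 1199 and 1187 CPM. Among them it had 59.7 CPM of Aqp4 against 5.64 and 6.82 CPM, and 56.8 CPM of Slc1a2 against 4.46 and 11.3 CPM. Apoe differed little, at 270 CPM against 264 and 260 CPM.

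Fgfr2 (ENSMUSG00000030849, chr7:130162451-133123350, minus strand) showed the largest difference of the 10 genes. Its levels were 34.5, 37.8 and 50.8 CPM in astrocytes, 0.809, 0.418 and 1.14 CPM in mKate2- and 0.527, 0.407 and 0.673 CPM in mKate2+ cells. These SB28 values rest on 15 to 34 reads per library, against 843 to 1784 reads in astrocytes. Fgfr2 fell by 5.70 ± 0.35 on the log2 scale in mKate2- cells (edgeR adjusted P = 1.37e-05) and by 6.18 ± 0.26 in mKate2+ cells (adjusted P = 6.27e-06). Its mean in SB28 was 1.61% of that in astrocytes, beside 0.592% for Slc1a3, 1.00% for Apoe and 0.685% for Olig1. The listed markers varied widely in this measure, with 0.726% for Atp1b2, 5.09% for Aldh1l1, 16.5% for Cspg4 and 115% for Clu. A contribution of carried-over astrocyte RNA to these reads was not tested. The M21 model of Fgfr2 spans many other genes and shares 3.04% of its exonic length with Ctbp2 on the same strand.

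Fgfr1 (ENSMUSG00000031565), an FGF receptor, had 406, 445 and 613 CPM in astrocytes, 250, 290 and 314 CPM in mKate2- and 286, 238 and 304 CPM in mKate2+ cells. The groups did not overlap. Fgfr1 had log2 fold changes of -0.76 ± 0.17 (edgeR adjusted P = 0.00527) and -0.75 ± 0.17 (adjusted P = 0.00749), past the adjusted P threshold and short of the fold threshold. It remained far more abundant than Fgfr2 in SB28, at 28.8 ± 3.30 CPM per kb against 0.0764 ± 0.0350 in mKate2- cells.

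Met (ENSMUSG00000009376, chr6:17463800-17573980, plus strand), the receptor for hepatocyte growth factor, was the one receptor of the list that rose. It had 102, 158 and 125 CPM in astrocytes, 310, 335 and 357 CPM in mKate2- and 335, 286 and 372 CPM in mKate2+ cells. The lowest SB28 library was well above the highest astrocyte library. The log2 fold changes were 1.40 ± 0.16 (edgeR adjusted P = 0.000194) and 1.44 ± 0.18 (adjusted P = 0.00036). Hgf, which codes for its ligand, did not pass the filter on low counts, with 0.245, 0.764 and 2.05 CPM in astrocytes and 0 to 4 reads in each SB28 library.

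Nras (ENSMUSG00000027852, chr3:103058285-103067914, plus strand), a classical RAS GTPase, had 114, 127 and 116 CPM in astrocytes, 206, 196 and 207 CPM in mKate2- and 203, 219 and 203 CPM in mKate2+ cells. Each group was tight and SB28 did not overlap astrocytes. The log2 fold changes were 0.78 ± 0.09 (edgeR adjusted P = 0.000248) and 0.88 ± 0.12 (adjusted P = 0.000507), past the adjusted P threshold and short of the fold threshold. The SB28 mean was 1.72 times that of astrocytes.

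Hras, a further RAS gene, had log2 fold changes of 0.16 ± 0.17 (edgeR adjusted P = 0.445) and 0.50 ± 0.21 (adjusted P = 0.0724) against astrocytes.

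The sequence before the start of Nras and parts of that before the start of Met are shown as examples of genes that were higher in SB28, and they were picked because they hold the letters in capitals. CACGTG is the E-box, and TGACTCA, with TGAGTCA as its other strand, is the AP-1 motif. The sequences are from RefSeq on GRCm38.p6, plus strand, where 7 of the 10 genes have an entry.
Nras, chr3:103058035-103058284: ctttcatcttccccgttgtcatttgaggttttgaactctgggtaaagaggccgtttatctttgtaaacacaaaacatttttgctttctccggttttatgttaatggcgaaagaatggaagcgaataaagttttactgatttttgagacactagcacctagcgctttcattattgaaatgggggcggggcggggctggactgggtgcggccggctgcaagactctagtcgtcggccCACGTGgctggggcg
Met, chr6:17463821-17463846: gacgaacagaCACGTGctggggcggg
Met, chr6:17463893-17463919: gttgcccggcTGAGTCAcgggccgggc
The E-box in the Nras sequence begins 15 bases before the start of the gene. In Met the E-box begins 126 bases and the AP-1 motif 54 bases before the RefSeq start, and both lie inside the GENCODE M21 gene, which starts 157 bases earlier. Of 32851 promoter windows of 250 bases, searched on both strands, 6.02% hold the E-box letters and 4.46% the AP-1 letters. Among the 7 genes with an entry, the E-box was found in Met and Nras and the AP-1 letters in Met. Pdgfc, also higher in SB28 and with an entry, held neither. These are letter matches, and neither binding nor a part of these motifs in the levels was tested.

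Per kb of exon, the order of the 10 levels differed between the cell types. In astrocytes Fgfr1 (49.4 ± 11.1 CPM per kb, SD, n = 3) and Pdgfa (40.6 ± 14.5) led, with overlapping ranges, followed by Nras (22.4 ± 1.36). Met (16.7 ± 3.69), Pdgfb (16.4 ± 1.34) and Pdgfc (14.9 ± 1.43) came next, and each overlapped its neighbour in that order. Pdgfrb (10.8 ± 0.319) and Fgfr2 (3.97 ± 0.834) stood apart from their neighbours, while Pdgfra (1.91 ± 0.764) and Egfr (1.86 ± 1.74) overlapped at the bottom. In mKate2- cells the order was Pdgfb (60.6 ± 4.50), Met (43.5 ± 3.05), Nras (38.0 ± 1.12), Pdgfc (30.3 ± 2.24), Fgfr1 (28.8 ± 3.30), Pdgfa (19.9 ± 0.358), Pdgfrb (9.56 ± 1.65), Pdgfra (1.15 ± 0.296), Egfr (0.325 ± 0.0857) and Fgfr2 (0.0764 ± 0.0350). Only Pdgfc and Fgfr1 overlapped as neighbours there. The order of the 10 in mKate2+ cells was the same, and there Met and Nras overlapped as well.

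**Figure D4:**
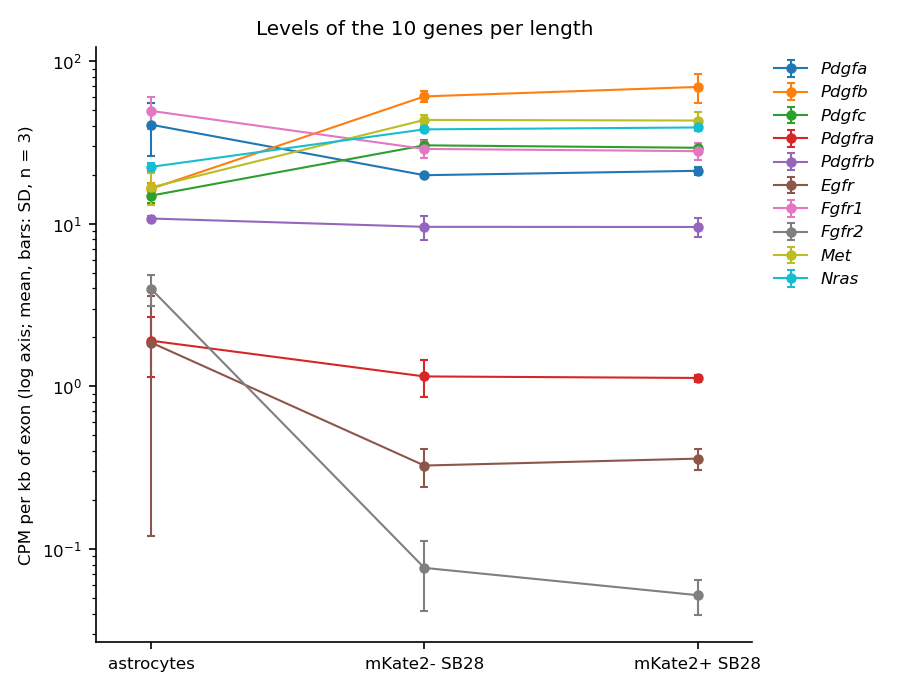
Mean CPM per kb of exon (log axis) of the 10 genes in astrocytes, mKate2- SB28 and mKate2+ SB28, with the SD over 3 libraries as bars. Pdgfb moves from 16.4 in astrocytes to 60.6 and 69.4 in SB28, Fgfr1 from 49.4 to 28.8 and 27.9, and Fgfr2 to the bottom.

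mKate2+ and mKate2- SB28 cells were compared to ask whether cells that had taken up astrocyte mitochondria differed in these genes. Of the 9 genes that passed the filter, 0 were called higher or lower under the thresholds for this pair of sorts (mean normalized count over 50, P value under 0.05 before adjustment and more than 1.5-fold), against 0.194% higher and 0.169% lower among all genes tested. By edgeR 0 of the 9 had an unadjusted P value below 0.05, and DESeq2 also called 0. The share of all genes below that unadjusted P value is not given here. Fgfr2 was too low to be tested. The largest log2 differences were 0.25 ± 0.17 for Pdgfb (edgeR adjusted P = 0.923), 0.19 ± 0.22 for Egfr (adjusted P = 0.93) and 0.14 ± 0.09 for Pdgfa (adjusted P = 0.923). All 10 genes overlapped between the 2 sorts, and the share of all genes that did so is not given here. In Pdgfb the difference rested on mKate2+ replicate 2, without which it was 0.02. Hras had sorts that did not overlap, with 71.4, 65.8 and 74.3 CPM in mKate2- and 75.5, 101 and 79.3 CPM in mKate2+ cells, and a log2 difference of 0.33 ± 0.15 (edgeR adjusted P = 0.923).

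The ligands of the receptors were followed with the remaining members of each family. Of 12 further EGF family genes, 9 were tested, and 4 were higher and 3 lower in SB28 in both comparisons. For this and the lists that follow, the shares over all genes tested were 11.5% higher and 22.4% lower in mKate2- cells, and 12.2% and 22.8% in mKate2+ cells. The ligands that rose were Btc, Areg, Ereg and Nrg2. Btc, betacellulin, averaged 5.39 CPM in astrocytes and 23.6 CPM in SB28, with log2 fold changes of 2.24 ± 0.25 (edgeR adjusted P = 0.000187) and 2.10 ± 0.28 (adjusted P = 0.000507). Areg, amphiregulin, averaged 22.6 and 58.0 CPM, with log2 fold changes of 1.36 ± 0.23 (adjusted P = 0.0015) and 1.46 ± 0.24 (adjusted P = 0.00137). Tgfa, Nrg1 and Erbb3 fell. Tgfa, a main EGFR ligand, had 16.3, 18.2 and 31.1 CPM in astrocytes and at most 0.469 CPM in SB28, and fell with log2 fold changes of -6.23 ± 0.46 and -6.60 ± 0.38 (adjusted P = 2.84e-05 and 1.52e-05). Egfr was thus lower in SB28 while 3 of its ligands, Btc, Areg and Ereg, were higher and Tgfa was lower. Hbegf, another EGFR ligand, had log2 fold changes of -0.91 and -0.84, short of the fold threshold, and Erbb2, the partner receptor, of -0.11 and -0.0025 (edgeR adjusted P = 0.448 and 0.986).

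In the FGF family 1 of 5 tested genes was higher and 3 lower in SB28 in both comparisons, beside 11.5% to 12.2% higher and 22.4% to 22.8% lower over all genes. Fgf7, whose protein signals through a splice form of FGFR2, had 20.4, 36.7 and 26.8 CPM in astrocytes, 140, 138 and 132 CPM in mKate2- and 139, 124 and 133 CPM in mKate2+ cells. It rose by 2.31 ± 0.19 (edgeR adjusted P = 4.95e-05) and 2.31 ± 0.21 (adjusted P = 8.94e-05) on the log2 scale, in the same libraries in which Fgfr2 was at 1.14 CPM or less. Fgfrl1, an FGF receptor without a kinase domain, fell with log2 fold changes of -2.61 and -2.54 (adjusted P = 1.59e-05 and 4.14e-05), Fgf1 with -2.93 and -2.77 (adjusted P = 0.000398 and 0.000808), and Fgfr3 was the other gene called lower. None of the 3 further HGF family genes was high enough to test. Among 16 other receptor tyrosine kinases 8 were tested, 0 were called higher and 2 lower in both. Short of the fold threshold, with edgeR adjusted P values below 0.05 in both, were Axl, Mertk and Ddr2 with positive and Tyro3 with negative log2 fold changes (0.93 and 0.81 for Mertk, -0.98 and -0.92 for Tyro3). The lower genes were Ntrk2, the BDNF receptor, at 33.3 CPM in astrocytes and 0.196 CPM in SB28, and Ddr1, a collagen receptor, at 474 and 164 CPM.

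**Figure D5:**
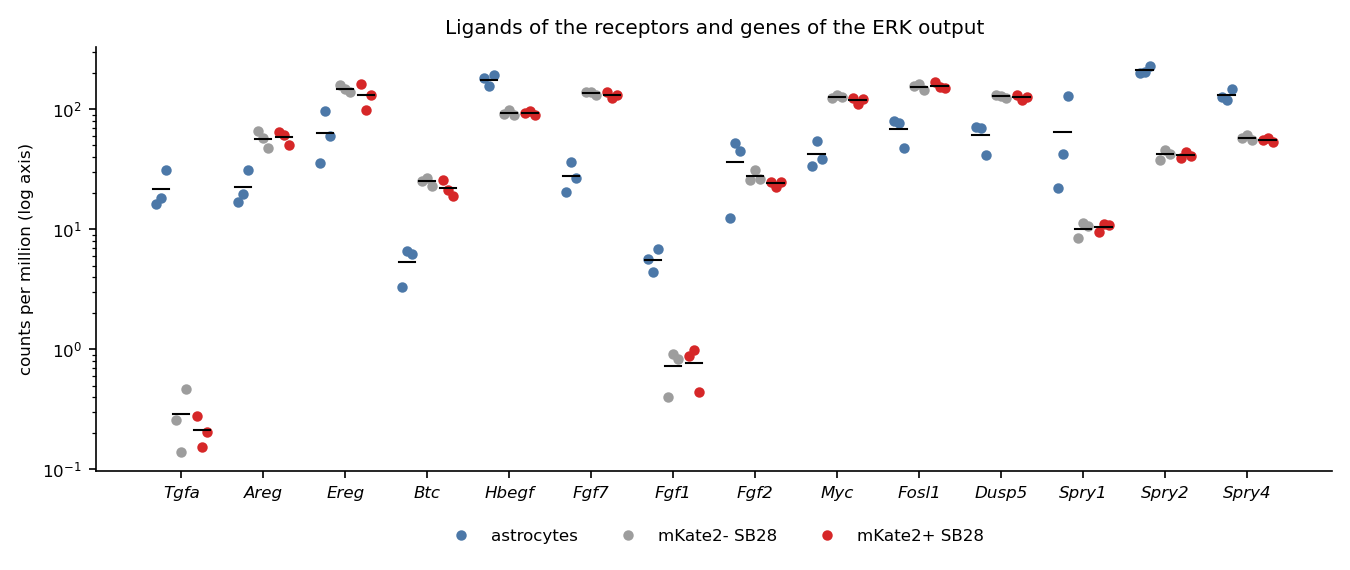
CPM values (log axis) of 8 ligand genes and 6 genes of the ERK output in each of the 9 libraries, with a black line at each group mean. Btc, Areg, Fgf7, Myc, Fosl1 and Dusp5 sit higher in all SB28 libraries and Tgfa, Hbegf, Fgf1 and the Sprouty genes lower, while Fgf2 overlaps.

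Downstream of the receptors, of the 5 other RAS-type GTPases, 1 was lower in both comparisons, Mras, at 58.7 CPM in astrocytes and 24.1 CPM in SB28. Of 8 exchange factors 3 were tested and Rasgrf1 was lower, at 23.9 and 0.221 CPM, while Sos1 had log2 fold changes of -0.11 and -0.19. Of 8 GTPase-activating proteins, which switch RAS off, 7 were tested. Rasa3 rose by 1.53 ± 0.13 (edgeR adjusted P = 5.28e-05) and 1.52 ± 0.14 (adjusted P = 0.0001) on the log2 scale, from 131 to 364 CPM. Rasal2 was called lower in mKate2+ cells alone, at -1.18 against -0.96 in mKate2- cells. Nf1, the neurofibromin gene often lost in glioblastoma, had log2 fold changes of -0.15 (adjusted P = 0.269) and -0.21 (adjusted P = 0.224).

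Of 6 adaptors 1, Gab1, was lower in both, with log2 fold changes of -1.59 and -1.67. Of 8 genes of the RAF-MEK-ERK cascade 0 were called higher and 2 lower in both, beside 22.4% and 22.8% lower over all genes. Araf fell with log2 fold changes of -1.42 ± 0.10 (edgeR adjusted P = 2.29e-05) and -1.49 ± 0.13 (adjusted P = 7.51e-05), and the scaffold gene Ksr1 with -1.20 and -1.26. In the PI3K-AKT list 1 of 10 was higher and 1 lower in both. Pik3cd, a catalytic subunit, rose from 3.48 CPM in astrocytes to 14.8 CPM in SB28, and Pik3r3, a regulatory subunit, fell from 60.5 to 8.49 CPM.

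Of the 18 genes of the ERK output and its feedback, 3 were higher in both comparisons, Myc, Fosl1 and Dusp5, beside 11.5% and 12.2% of all genes tested. Myc rose by 1.62 ± 0.17 (edgeR adjusted P = 0.000128) and 1.57 ± 0.18 (adjusted P = 0.000256) on the log2 scale, from a mean of 42.1 CPM to 123 CPM. Fosl1, an AP-1 subunit gene, rose by 1.20 and 1.28, from 68.1 to 156 CPM. Lower were 4 genes in mKate2- cells, Spry1, Spry2, Spry4 and Ccnd1, and in mKate2+ cells the same 4 and Egr1, beside 22.4% and 22.8% of all genes tested. Spry2 had 202, 205 and 228 CPM in astrocytes and between 38.1 and 45.5 CPM in SB28, and fell with log2 fold changes of -2.32 ± 0.11 (edgeR adjusted P = 8.27e-06) and -2.28 ± 0.12 (adjusted P = 1.18e-05). Ccnd1, cyclin D1, fell with log2 fold changes of -1.45 and -1.36, from 3500 to 1280 CPM. The median log2 fold change of the 18 genes was -0.47 in mKate2- and -0.40 in mKate2+ cells, beside -0.04 and -0.02 over all genes tested. Between mKate2+ and mKate2- cells 0 of the 75 genes tested in these lists were called by edgeR, beside 0.194% higher and 0.169% lower over all genes. An unadjusted P value below 0.05 was found for 1 of them, and the share of all genes below it is not given here.

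For each of the 10 genes, the gene whose log2(CPM + 1) followed it most closely over the 9 libraries was sought among 12727 genes with a mean of at least 1 CPM. The 9 points share the grouping into astrocytes and SB28, and the correlations are descriptions. The closest were Seh1l for Met (Pearson r = 0.9996), Slc1a3 for Fgfr2 (0.999), Bod1 for Pdgfb (0.998), Sh3kbp1 for Pdgfc (0.998), Ing1 for Nras (0.996), Pcdh1 for Egfr (0.993), Gpr155 for Fgfr1 (0.989), Chmp7 for Pdgfa (0.989), Palld for Pdgfra (0.981) and Ccnd3 for Pdgfrb (0.901). Above a correlation of 0.95 stood 1963 genes for Fgfr2, 1108 for Pdgfc, 1092 for Met and 1025 for Nras. For Pdgfb, Fgfr1, Egfr and Pdgfa there were 815, 340, 243 and 164. There were 7 for Pdgfra and 0 for Pdgfrb, the 2 genes whose levels overlapped between the cell types.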

How the data were processed

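RNA-seq was done on 9 libraries, 3 per group. The authors trimmed adapters (Trimmomatic 0.36 in the submitters' processing notes), mapped reads to GRCm38 with STAR 2.5.2b and counted unique hits per gene with featureCounts of Subread 1.5.2, and the deposited values are these raw counts, with no normalization. The sort gates in the labels give CellTrace Violet to the tumor cells, whereas the study's methods stain the astrocytes, so libraries were taken by their names. Names, positions and exonic lengths came from GENCODE M21, where 49056 of 49315 gene IDs had a name.

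Each comparison used its 6 libraries in edgeR 4.0.16 (R 4.3.3, limma 3.58.1), with TMM normalization, genes above 1 CPM in at least 2 libraries, the quasi-likelihood test and Benjamini-Hochberg adjustment over all genes tested. A standard error is the log2 fold change divided by the square root of F. The share of Pdgfra in the 2 PDGF receptor transcripts was compared by an exact permutation test, with the smaller tail doubled for a two-sided P value. A planned comparison of shares and some listed genes are not reported here. The procedure was tested on simulated data. Replicates of a group differed by more than counting noise (chi-square per degree of freedom of 17.3 or more), and P values measure the spread between co-cultures.

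The members and gene lists were chosen with earlier results of these data known. Named genes are the members, up to 2 genes per list and direction that led by adjusted P value against astrocytes, Hras, the leading markers and those at 0, and the closest gene to each member. Other genes, among them those that complete a count of 5 or fewer, and the promoter motifs were chosen after their values were seen. Alternatives were DESeq2 1.42.0, upper-quartile and RLE normalization, no filter on low counts, all 9 libraries in 1 fit, replicate number as a block and each library left out. Calls by the adjusted P value alone were added after seeing the data.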

Additional observations from a re-analysis of the deposited data

How the results depend on the processing

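Pdgfb, Met and Fgfr2, and Egfr, kept their direction and call in both comparisons with astrocytes under every alternative run, and Nras and Fgfr1 kept their direction and stayed short of the fold threshold. Pdgfc fell short of it with upper-quartile normalization (0.96 and 0.95), which moved the median of all genes to -0.12, and in mKate2- cells without mKate2- replicate 2 (0.98). The labels do not say whether a replicate number marks a shared co-culture, and same-numbered deviations correlated from -0.15 to 0.25, so the numbers were not taken as pairs. With replicate number as a block, Pdgfa in mKate2- cells was at -0.96, and without the filter at -0.97, both short of the threshold. By the adjusted P value alone, mKate2- cells had 3910 higher and 4515 lower genes, and mKate2+ cells 3732 higher and 4281 lower. In mKate2+ cells 4 members were lower by that rule.

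Between mKate2+ and mKate2- cells, where 23 genes were higher and 20 lower, DESeq2 called 62 higher, no filter 224 and 35, all 9 libraries 41 and 12, the replicate block 13 and 33, and leaving out each library 6 to 310 higher (6 without mKate2+ replicate 2, 310 without mKate2+ replicate 1) and 16 to 70 lower. No member was called in any of these. The sign of the smallest member differences was not stable. With each library left out the log2 difference ran from -0.17 to 0.18 for Pdgfra, -0.084 to 0.14 for Pdgfrb, -0.041 to 0.063 for Pdgfc, -0.080 to 0.069 for Fgfr1 and -0.051 to 0.087 for Met, and with upper-quartile normalization it was -0.0075 for Pdgfc and -0.0055 for Fgfr1. The number of libraries limits the precision, and Fgfr2 in SB28 also rests on 15 to 34 reads per library.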
